A study of Mus musculus with 10 samples.

Results

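The genes described here are 10 members of the Notch pathway. They comprise the receptor genes Notch1, Notch2 and Notch3, the ligand genes Dll1, Dll3 and Jag1, and Hes1, Hes5, Hes6 and Hey1 of the HES and HEY families of transcriptional repressors. They were taken by gene symbol from a table of 52632 genes. Gene positions are as the table gives them, on GRCm38. All 10 were protein-coding and passed the filter on low counts, as did 17110 genes in all.

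Notch signalling passes between touching cells. A Delta or Jagged ligand on one cell leads to cleavage of the Notch receptor on its neighbour, and the freed receptor domain enters the nucleus, where it joins the DNA-binding protein RBPJ and switches on repressor genes such as Hes1, Hes5 and Hey1. In the embryonic cortex these repressors hold back proneural genes and so keep neural stem cells undifferentiated, while cells that begin to differentiate raise Delta ligands.

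RNA was sequenced from 10 cultures of mouse neural stem cells, each from the cortex of 1 embryo at embryonic day 14.5 and grown on laminin with EGF and basic FGF. The embryos were Smchd1 GFP-E147A/+ or Smchd1 +/+. SMCHD1 is a chromatin protein that takes part in X inactivation and in silencing of gene clusters, and E147A is a mutation of its ATPase. The 4 groups were female E147A/+ (n = 2, litters 1 and 2), female +/+ (n = 2, both litter 3), male E147A/+ (n = 3, litters 1, 1 and 3) and male +/+ (n = 3, litters 4, 1 and 3). The E147A allele carried a GFP tag that the +/+ allele lacked, so tag and mutation cannot be told apart. All females also carried XistdeltaA on 1 X, which left the Castaneus (Cast) X inactive, and males were XY. Every embryo was labelled as the offspring of a Cast father and of a mother that was a 129/C57 cross. In females no litter held both genotypes, so genotype and litter cannot be told apart there. Replicates were separate embryos, some from the same litter.

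Libraries held 20648916 to 44519020 counts. No replicate pair agreed within counting noise, with a chi-square per gene of 35.7 to 210. Xist stood at 984 to 2291 CPM, which here means counts scaled to a common library size with TMM factors, in the females and at most 0.536 CPM in the males. The summed level of 8 neural stem cell markers was 3757 to 6146 CPM. Its largest parts were Vim (1568 to 3936 CPM), Slc1a3 (631 to 1146) and Nes (546 to 1125), while Sox2 stood at 178 to 238. Marker lists of neurons, astrocytes, intermediate progenitors and the oligodendrocyte lineage summed to 567 to 1035, 174 to 253, 94.6 to 198 and 85.4 to 453 CPM. Single genes made up most of these sums, namely Map2 (477 to 982 CPM), Gja1 (130.3 to 170.1), Btg2 (63.0 to 181) and Cspg4 (61.2 to 322), while Tubb3 and Dcx of neurons were at most 30.1 and 26.5 CPM, Gfap and Aqp4 of astrocytes at most 4.93 and 8.42, and Eomes of intermediate progenitors at most 0.657. Those of endothelial cells, mural cells, fibroblasts and microglia summed to at most 4.12, 11.6, 23.9 and 2.80 CPM. Smchd1 stood at 116 to 120 CPM in female E147A/+, at 140 to 172 in female +/+, at 94.2 to 128 in male E147A/+ and at 122 to 192 in male +/+, which does not show the mutation itself. The allele-resolved counts went against the label of a Cast father at many places in the genome, where the Cast share in single female libraries was near 0, as given with the alleles of each gene.

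The promoter of Hes5 is shown because Hes5 varied most among the 10 genes and its window was the only one among the members' windows with the core motif of RBPJ, TGGGAA. The promoter of Dll1 is shown beside it because Dll1 is the member whose level followed that of Hes5 most closely. Both are RefSeq windows on GRCm38.p6, from 250 bases before the start site to 50 bases after it. The Hes5 window is chr4:154960673-154960972 on the plus strand. The Dll1 window is chr17:15375774-15376073 on the minus strand and is 1 of 2 listed for that gene. Capitals mark TGGGAA or its reverse complement TTCCCA:
Hes5: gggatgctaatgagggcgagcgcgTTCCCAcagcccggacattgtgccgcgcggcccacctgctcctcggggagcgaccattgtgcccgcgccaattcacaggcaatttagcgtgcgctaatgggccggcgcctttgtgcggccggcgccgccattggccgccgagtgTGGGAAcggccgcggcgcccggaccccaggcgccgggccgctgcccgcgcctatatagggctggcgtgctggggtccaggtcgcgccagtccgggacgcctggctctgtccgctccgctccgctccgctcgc
Dll1: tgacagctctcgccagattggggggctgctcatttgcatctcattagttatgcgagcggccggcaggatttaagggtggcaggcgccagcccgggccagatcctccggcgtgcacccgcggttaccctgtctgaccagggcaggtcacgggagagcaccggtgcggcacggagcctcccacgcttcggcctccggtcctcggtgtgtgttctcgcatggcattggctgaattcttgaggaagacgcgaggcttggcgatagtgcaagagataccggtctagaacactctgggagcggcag

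Of the 10 genes, 8 had a promoter entry, in 10 windows, and Hes1 and Hey1 had none. On either strand, TGGGAA occurred in 1 of the 10 windows, that of Hes5, at 226 bases before the start site on the minus strand and at 82 bases before it on the plus strand. Both matches also read GTGGGAA, the longer form of the motif that contains the core. Of all 32851 RefSeq promoters of this length, 25.6% held TGGGAA and 6.38% held GTGGGAA. The N box CACNAG, a sequence bound by HES proteins, was found in 5 of the 10 windows, 1 each of Notch1, Notch2, Notch3, Dll1 and Hes6, against 42.5% of all promoter windows. The Dll1 match was in the other window of that gene and not in the one printed. These matches describe letters in a window and not binding.

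Per kilobase of exon, Hes6 was the most abundant of the 10 genes. Hes6 (chr1:91411483-91414038) encodes a HES family member that opposes HES1 and promotes differentiation, and its level was 73.4 ± 18.2 CPM per kb (SD, n = 10). Dll3 followed at 19.8 ± 13.4, Hes1 at 19.2 ± 6.97, Notch1 at 16.1 ± 3.68 and Dll1 at 14.2 ± 4.25 CPM per kb. Lower levels were measured for Jag1 at 11.9 ± 3.82, Notch3 at 10.1 ± 2.88, Hes5 at 8.52 ± 6.17, Hey1 at 5.77 ± 1.65 and Notch2 at 3.60 ± 0.758 CPM per kb. Hes6 was above Dll3 in 10 of 10 libraries and Hey1 above Notch2 in 9 of 10, both beyond the spread of their differences. No other neighbours in this order differed beyond that spread.

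The 10 genes varied unequally between cultures. The SD of log2 CPM over the 10 libraries was 1.12 for Hes5 and 0.86 for Dll3, and ranged from 0.31 for Notch2 to 0.55 for Hes1 among the others, against a median of 0.38 over the 17110 tested genes. All 10 genes were above the median of 0.27 over the 10418 tested genes whose mean log2 CPM reached 3, as that of each member did. Hes5 spanned 10.9-fold between its lowest and highest library and Dll3 5.67-fold. The other 8 genes spanned 2.01-fold (Notch2) to 2.84-fold (Notch3).

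**Figure D1:**
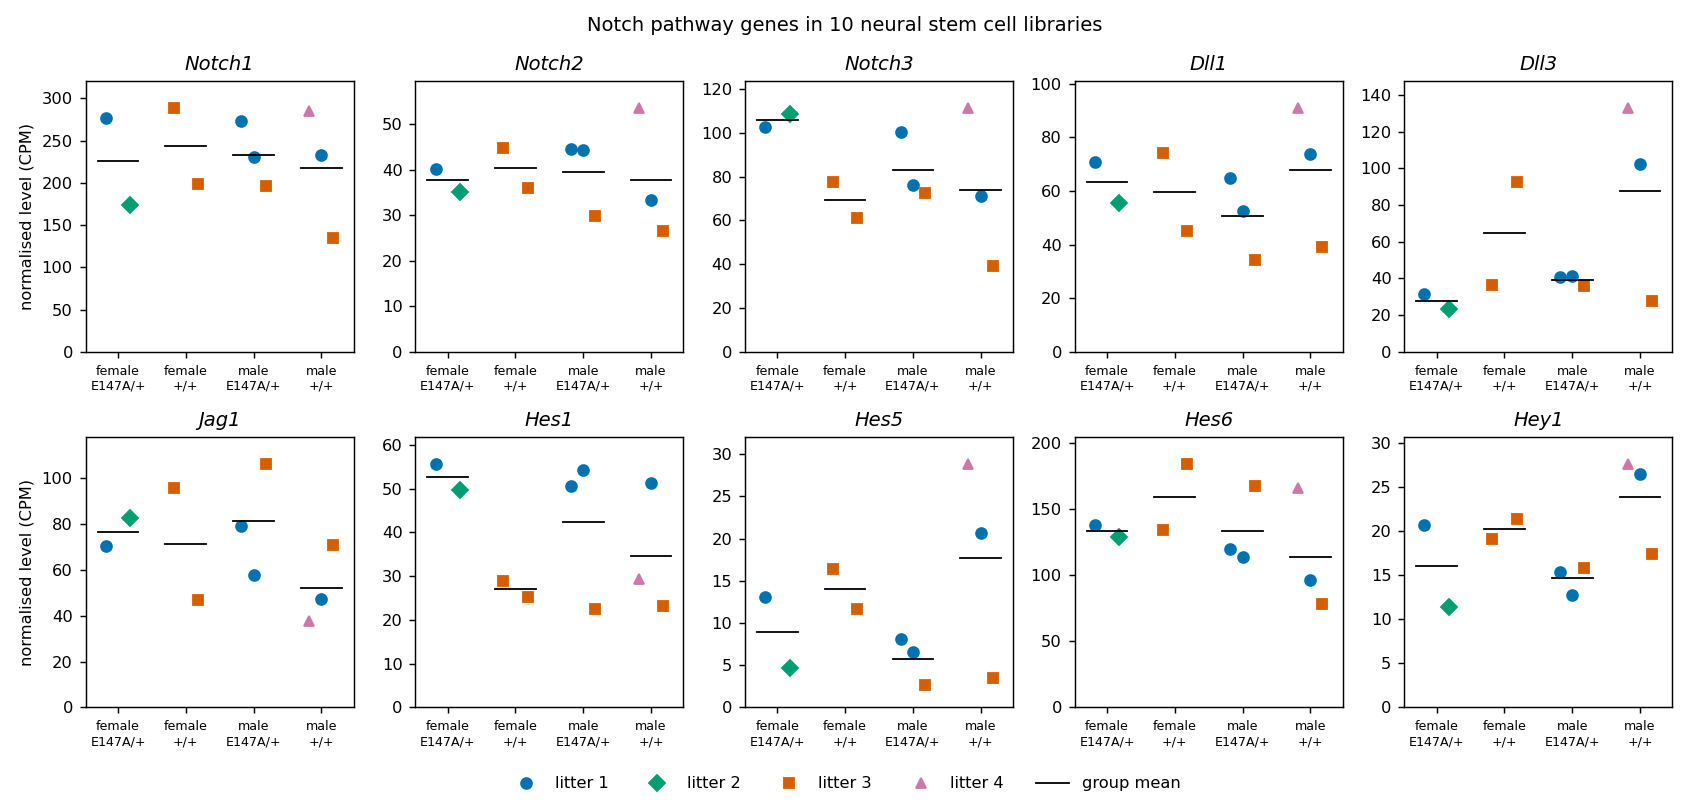
Level of each gene (vertical axis, CPM, from 0) in the 10 libraries by group, with symbols for litters and a bar at each group mean. Hes1 divides by litter, with litter 1 at 50.6 to 55.7 CPM and litter 3 at 22.6 to 28.9, and Dll3 is above 90 CPM in 3 libraries, all +/+.

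E147A/+ and +/+ cultures were compared to ask whether the mutation altered these genes. By edgeR's quasi-likelihood test with Benjamini-Hochberg adjustment over all tested genes, none of the 10 genes passed an adjusted p of 0.05 over both sexes, where 14 of 17110 genes (0.0818%) did. The count was also 0 in females, against 0.0117% of all genes, and 0 in males, against 0.0234%. At an unadjusted p of 0.05, 2 of the 10 genes differed over both sexes (Hey1 and Dll3), against 5.90% of all genes, 0 in females, against 4.36%, and 3 in males (Hey1, Hes5 and Dll3), against 3.44%. DESeq2 likewise called 0 of the 10 genes in each of these 3 comparisons, with 4, 2 and 3 at an unadjusted p of 0.05. The median log2 fold change of the 10 genes over both sexes was -0.015, beside -0.014 for all tested genes. In groups this small a change of moderate size can be missed, and a p above the threshold does not show equal levels.

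**Figure D2:**
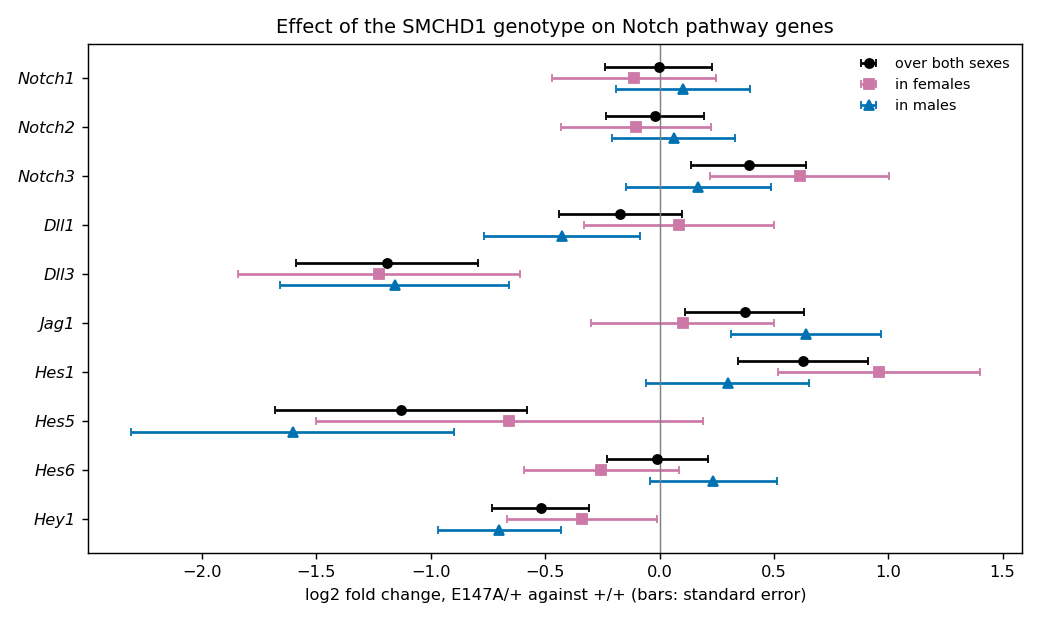
Log2 fold change of each gene in E147A/+ against +/+ cultures (horizontal axis), over both sexes, in females and in males, with bars of 1 standard error. Dll3 and Hes5 lie lowest, at -1.19 and -1.13 over both sexes, and Hes1 highest, at 0.63, and no gene passed the adjusted threshold.

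Among the ligands, Dll3 had the largest difference. Dll3 (chr7:28293553-28302238) encodes a divergent Delta protein that stays mainly inside the cell and inhibits Notch signalling within it. It stood at 31.7 and 23.4 CPM in female E147A/+ and at 36.5 and 92.6 in female +/+. In male E147A/+ it stood at 40.8, 41.2 and 35.9 CPM, against 133, 103 and 27.7 in male +/+. Levels above 90 CPM occurred in 3 of the 5 +/+ cultures and in none of the 5 E147A/+ cultures, but the lowest male value was also +/+. The female groups did not overlap, and the male groups did. The change over both sexes came to -1.19 on the log2 scale (SE 0.40, adjusted p 0.732 by edgeR's quasi-likelihood test). Without female +/+ 2, the female library high in Dll3, it was -0.78, and in females it went from -1.23 to -0.40. Within litters the male difference was -1.32 on the log2 scale in litter 1 (2 E147A/+ libraries, 1 +/+) and 0.37 in litter 3 (1 of each). With single libraries on a side, these values do not show whether the difference depended on litter.

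The libraries high in Dll3 were also high in genes of the oligodendrocyte lineage. Pdgfra, the growth factor receptor of oligodendrocyte precursors, stood at 66.7, 85.0 and 47.2 CPM in the 3 libraries high in Dll3 and at 2.84 to 33.4 in the other 7. Sox10, a transcription factor of the lineage, stood at 26.0, 32.6 and 16.1 CPM in those 3 and at 0.439 to 6.45 in the others. The 6 markers of that list summed to 85.4 to 130 CPM in female E147A/+, 178 to 237 in female +/+, 132 to 186 in male E147A/+ and 104 to 453 in male +/+, and 1 of the 6, Gpr17, was lower in E147A/+ over both sexes (log2 fold change -4.98, SE 0.65, adjusted p 0.0249 by edgeR), beside 0.0818% of all tested genes called in either direction. Gpr17 was named after its values were seen and stood at no more than 4.62 CPM. The part of these cells in the level of Dll3 was not tested. In bulk RNA, fewer cells of a type and less RNA per cell cannot be told apart.

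Dll1 and Jag1 had genotype differences of smaller size than Dll3. Dll1 (chr17:15367354-15376872) encodes the Delta ligand that cortical progenitors present to their neighbours. It stood at 70.9 and 55.6 CPM in female E147A/+ and at 74.2 and 45.1 in female +/+. In the males it was 64.9, 52.4 and 34.1 CPM with E147A/+ against 90.8, 73.8 and 39.0 with +/+. The groups overlapped in both sexes, and the change over both sexes came to -0.17 on the log2 scale (SE 0.27, adjusted p 0.902 by edgeR). It was -0.43 with litter as a term, -0.33 without female +/+ 2 and 0.035 without female +/+ 1. Jag1 (chr2:137081456-137116644), a Jagged ligand, stood at 70.2 and 82.6 CPM in female E147A/+ and at 95.7 and 46.8 in female +/+. In the males it was 79.1, 57.8 and 106 CPM with E147A/+ against 37.5, 47.4 and 70.8 with +/+. Its groups also overlapped in both sexes, and the difference was 0.37 on the log2 scale (SE 0.26, adjusted p 0.824 by edgeR). It was 0.68 without female +/+ 1, 0.16 without female +/+ 2 and 0.57 with litter as a term.

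Among the receptors, Notch1 and Notch2 had genotype differences near 0. Notch1 (chr2:26457903-26516663), the main receptor of cortical progenitors, stood at 277 and 174 CPM in female E147A/+ and at 288 and 199 in female +/+. In the males it was 273, 231 and 196 CPM with E147A/+ against 285, 233 and 135 with +/+. Every group held both high and low cultures, and the change over both sexes came to -0.0044 on the log2 scale (SE 0.23, adjusted p 0.998 by edgeR). Notch2 (chr3:98013527-98150361), a receptor also used by radial glia, ranged from 26.6 to 53.6 CPM, and the difference was -0.020 on the log2 scale (SE 0.21).

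Notch3 (chr17:32120820-32166852), a receptor best known from blood vessel mural cells and also found in neural progenitors, stood at 103 and 108 CPM in female E147A/+ and 77.3 and 60.9 in female +/+. In males it stood at 101, 76.1 and 72.5 CPM in E147A/+ and at 111, 71.2 and 39.1 in +/+. The female groups did not overlap and the male groups did. The change over both sexes came to 0.39 on the log2 scale (SE 0.25, adjusted p 0.824 by edgeR), with 0.60 without male +/+ 1 and 0.24 without male +/+ 3. In females it was 0.61, and 0.045 with litter as a term. On the E147A/+ side the latter rests on female E147A/+ 1 alone, because litter 2 held only female E147A/+ 2. The litter difference in that fit comes from the males. The 5 markers of mural cells summed to 1.16 to 1.57 CPM in female E147A/+, 2.07 to 4.47 in female +/+, 1.34 to 11.6 in male E147A/+ and 1.31 to 4.59 in male +/+. The highest sum was in male E147A/+ 3, with Acta2 at 4.59, Rgs5 at 4.06, Pdgfrb at 2.49, Kcnj8 at 0.366 and Myh11 at 0.133 CPM, and Notch3 was the lowest of its group there.

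Hes5 and Hey1, both repressors induced by Notch, were lower on average in E147A/+ without passing the threshold. Hes5 (chr4:154960923-154962371) stood at 13.1 and 4.72 CPM in female E147A/+ and at 16.4 and 11.7 in female +/+. In the males it was 8.12, 6.60 and 2.66 CPM with E147A/+ against 28.9, 20.6 and 3.44 with +/+. The groups overlapped in both sexes, and 1 male +/+ culture, of litter 3, was as low as the male E147A/+ cultures. The log2 fold change was -1.13 over both sexes (SE 0.55, adjusted p 0.821 by edgeR) and -1.60 in males (SE 0.71, adjusted p 1.00 by edgeR). The male value became -1.05 without male +/+ 1 and -2.09 without male +/+ 3. In females it was -0.66, which became -1.57 without female E147A/+ 1 and -0.081 without female E147A/+ 2. Within litters the male difference was -1.49 on the log2 scale in litter 1 and -0.37 in litter 3.

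Hey1 (chr3:8663359-8667256) stood at 20.7 and 11.4 CPM in female E147A/+ and at 19.1 and 21.4 in female +/+. In the males it was 15.4, 12.8 and 15.9 CPM with E147A/+ against 27.7, 26.5 and 17.4 with +/+. It was the only member whose male groups did not overlap. The log2 fold change was -0.52 over both sexes (SE 0.21, adjusted p 0.814 by edgeR), and -0.32 without female E147A/+ 2. Within litters the male difference was -0.91 on the log2 scale in litter 1 and -0.13 in litter 3.

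Across groups that do not overlap, 2 of the 10 genes (Hes1 and Notch3) were higher in both female E147A/+ cultures than in either +/+ culture, against 21.8% of all tested genes, and 1 (Dll3) was lower, against 19.3%. In males 0 of the 10 were higher without overlap, against 3.20%, and 1 (Hey1) was lower, against 3.96%. An exact two-sided permutation test cannot go below p = 0.33 for 2 against 2 libraries or p = 0.1 for 3 against 3.

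Hes1 divided the cultures by litter. Hes1 (chr16:30064384-30067796) encodes the repressor that sustains neural stem cells and represses its own gene. It stood at 55.7 and 49.6 CPM in female E147A/+ (litters 1 and 2) and at 28.9 and 25.3 in female +/+ (both litter 3). In male E147A/+ it stood at 50.6 and 54.2 CPM in litter 1 and 22.6 in litter 3, while male +/+ had 29.3 in litter 4, 51.3 in litter 1 and 23.1 in litter 3. All 4 cultures of litter 1 were thus at 50.6 to 55.7 CPM and all 4 of litter 3 at 22.6 to 28.9, and the single cultures of litters 2 and 4 were at 49.6 and 29.3. Within litters the male genotypes differed by 0.030 on the log2 scale in litter 1 and by -0.032 in litter 3.

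Of the 10 members 1, Hes1, was higher in every litter 1 culture than in every litter 3 culture, a separation found in 11.4% of all tested genes, and 0 members were lower without overlap, against 9.67%. Over both sexes the genotype log2 fold change of Hes1 was 0.63 (SE 0.28, adjusted p 0.821 by edgeR), and it was -0.071 when litter was a term of the fit. In females it went from 0.96 to -0.15. On the E147A/+ side the value of -0.15 rests on female E147A/+ 1 alone, because litter 2 held only female E147A/+ 2. The litter difference itself, estimated from that fit after the pattern had been seen, was 1.19 (SE 0.17, unadjusted p 0.0002, adjusted p 0.0726 by edgeR), and its adjusted p was 0.0692 to 0.314 when each library was left out in turn. This estimate rests on the 5 males of litters 1 and 3, because no female group held both litters.

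Other members also differed between the litters without passing the adjusted threshold. None of the 10 genes passed an adjusted p of 0.05 for litter 1 against litter 3 in edgeR, against 0.111% of all genes (DESeq2 was not run for it), and 6 were past an unadjusted p of 0.05, against 17.0%. All 6, which were Notch1, Notch2, Notch3, Dll1, Hes1 and Hes5, were higher in litter 1. The log2 difference was 1.94 for Hes5 (SE 0.36, adjusted p 0.107 by edgeR), 0.84 for Dll1 (SE 0.24, adjusted p 0.182) and 0.54 for Notch1 (SE 0.22, adjusted p 0.275). For Jag1 it was -0.61 (SE 0.31, adjusted p 0.365).

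Hes6 showed no such division by litter. It stood at 138 and 129 CPM in female E147A/+ and at 134 and 184 in female +/+. In the males it was 120, 114 and 167 CPM with E147A/+ against 166, 96.5 and 78.5 with +/+. The groups overlapped in both sexes, and the change over both sexes came to -0.0094 on the log2 scale (SE 0.22, adjusted p 0.995 by edgeR).

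The effect of genotype was not shown to differ between the sexes, and female and male +/+ cultures showed no detectable difference in these genes. The females carried XistdeltaA, so sex and that allele cannot be told apart in this contrast, and they were both of litter 3, while the +/+ males were of litters 1, 3 and 4. The interaction passed an adjusted p of 0.05 in edgeR for 0 of the 10 genes, against 0% of all genes, and an unadjusted p of 0.05 for 0, against 1.84%. Female against male +/+ cultures passed for 0 of the 10, against 0.0292% of all genes, and for 0 unadjusted, against 1.65%. DESeq2 called 0 in both, with 0 at an unadjusted p of 0.05. The log2 difference between female and male +/+ ranged from -0.44 (SE 0.56) for Dll3 to 0.49 (SE 0.31) for Hes6.

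Ligand, receptor and target levels were then compared across the 10 cultures, to ask which rose and fell together. Pearson's r of log2 CPM was computed for all 45 pairs, with two-sided permutation p-values adjusted over the 45. The cultures share litters and so are not fully independent. Adjusted p was under 0.05 for 3 pairs (14 unadjusted). For Dll3 and Hes1 the libraries fell into separate clusters, of 7 and 3 for Dll3 and of 5 and 5 for Hes1, so no r over all libraries is given for pairs with either. That leaves 28 pairs of 8 genes, of which 20 had a positive r, with a median of 0.39, and 2 passed. No share over pairs of other genes is given beside these counts. For scale, Notch1 and Hes6 had an r of 0.39, and Hes6 ranked 1932 for Notch1 among 10408 genes whose mean log2 CPM reached 3.

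**Figure D3:**
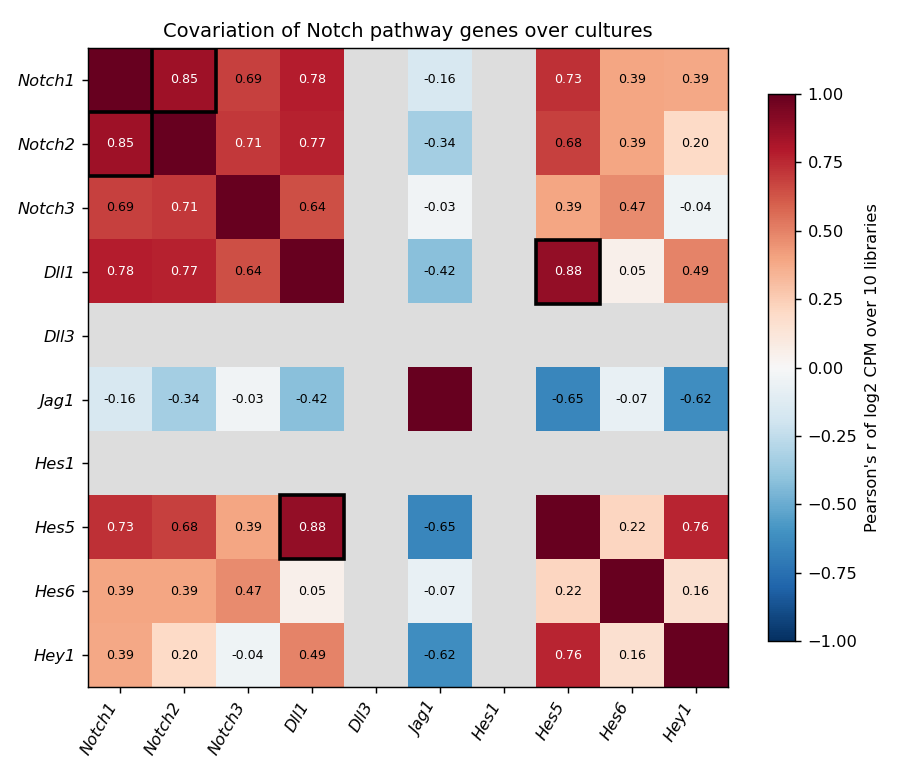
Pearson's r of log2 CPM over the 10 libraries for each pair of genes (colour scale from -1 to 1, values printed), with boxes around pairs of adjusted p under 0.05 and grey for Dll3 and Hes1, whose libraries form separate clusters. Dll1 with Hes5 (0.88) and Notch1 with Notch2 (0.85) are boxed, and Jag1 is negative with all 7 other genes shown.

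Dll1 and Hes5, a ligand and a target, had the closest relation. Pearson's r was 0.88 (permutation p 0.00091, adjusted p 0.0410, n = 10) and Spearman's rho 0.90 (permutation p 0.00081, adjusted p 0.0365). Without the 2 libraries farthest from the median of Dll1, which were male E147A/+ 3 and male +/+ 3, r was 0.73. In the 6 males alone r was 0.98 (exact permutation p 0.00278, adjusted p 0.0833), and no litter, genotype within a sex or set of females held the 6 libraries needed for an r of its own. With each library left out in turn r stayed between 0.83 and 0.96, and adjusted p rose above 0.05 without female +/+ 1 (0.0545), male E147A/+ 1 (0.0833), 2 (0.0506) or 3 (0.0736), or male +/+ 1 (0.141) or 3 (0.0781).

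Notch1 and Notch2, both receptors, also varied together. Pearson's r was 0.85 (permutation p 0.00227, adjusted p 0.0441, n = 10) and Spearman's rho 0.84 (permutation p 0.00408, adjusted p 0.0606). Without the 2 libraries farthest from the median of Notch1 r was 0.79, and in the 6 males alone it was 0.88 (exact permutation p 0.0125, adjusted p 0.138). Adjusted p rose above 0.05 without female +/+ 1 (0.0545) or 2 (0.0783), male E147A/+ 1 (0.0858) or 2 (0.0506), or male +/+ 1 (0.141) or 3 (0.122), where r was 0.76 to 0.87.

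Notch1 and Hes5, a receptor and a target, did not pass over the 10 levels and had a higher r after each group's mean was subtracted. Pearson's r was 0.73 (permutation p 0.0143, adjusted p 0.0806, n = 10) and Spearman's rho 0.82 (permutation p 0.00539, adjusted p 0.0606), with r of 0.61 without the 2 libraries farthest from the median of Notch1. In the males alone r was 0.71 (exact permutation p 0.0958, adjusted p 0.292). With group means subtracted r was 0.95 (permutation p 2e-05, adjusted p 0.0009). This p can be too small and does not decide whether the pair passed. All 10 deviations were permuted freely, though they are tied within groups and mirror each other in groups of 2.

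Dll3 and Jag1 were the other pair with an adjusted p under 0.05, and their relation rested on the 3 libraries high in Dll3. Those libraries had the 3 lowest levels of Jag1, 46.8, 37.5 and 47.4 CPM, against 57.8 to 106 in the other 7. Within the 7 others Pearson's r was -0.064 (exact permutation p 0.896, adjusted p 0.896 over 8 pairs) and Spearman's rho -0.21 (exact permutation p 0.662, adjusted p 0.906). Dll3 and Hes6 had an r of 0.24 within those 7 (exact permutation p 0.617, adjusted p 0.896) and a rho of -0.11 (exact permutation p 0.840, adjusted p 0.906). No r is given for Notch1 or Jag1 with Hes1, since each Hes1 cluster held 5 libraries, under the minimum of 6, and neither pair was among the 3 past the threshold over all libraries.

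**Figure D4:**
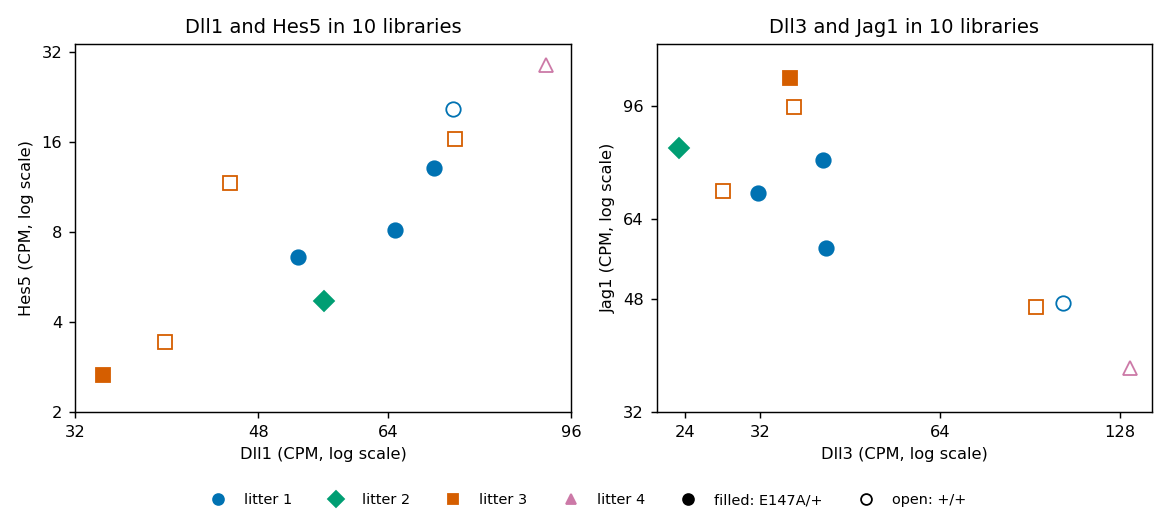
Level of Hes5 against Dll1 (left) and of Jag1 against Dll3 (right) in the 10 libraries, both axes in CPM on a log scale, with litter by symbol and genotype by fill. Hes5 rises with Dll1 from 2.66 to 28.9 CPM. Dll3 divides the libraries into clusters of 7 and 3. Jag1 forms no separate clusters and is lowest in the 3 libraries high in Dll3.

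Across 10408 other genes whose mean log2 CPM reached 3, the genes most like 3 members were ranked by Pearson's r over the same 10 libraries, as a description without a test. Zfyve26 (0.94), Dtx3l (0.94) and Gli2 (0.93) were most like Notch1, and Kdm3b (0.96), Als2cl (0.95) and Fan1 (0.95) most like Dll1. Kcnj10 (0.91), Slc15a2 (0.89) and Kdm3b (0.88) were most like Hes5. Dll1 ranked 4 among all of these genes for Hes5, and Hes5 ranked 22 for Dll1. Notch2 ranked 24 for Notch1.

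In females, counts had been assigned to the 129 or the Cast allele, and 9 of the 10 genes had at least 10 such counts in every library. Hes1 had 2 to 6 and is left out. Intervals are 95% Wilson intervals and cover counting error only. The Cast share is set beside the median share of genes within 2 Mb, because shares near 0 spanned whole neighbourhoods. The shares are given as a description, with no test. Counts per allele were given for the females only.

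Dll1 and Notch3, both on chromosome 17 as is Smchd1, had almost no Cast counts in both E147A/+ females and about equal shares of both alleles in the +/+ females. The Cast share of Dll1 was 0.702% (0.322 to 1.52) and 0.303% (0.0833 to 1.10) in female E147A/+ and 49.7% (45.7 to 53.8) and 52.0% (47.3 to 56.7) in female +/+. That of Notch3 was 0.385% (0.150 to 0.985) and 0% (0 to 0.354; 0 of 1082 counts, where 3 counts would be 0.277%) in E147A/+ and 51.5% (47.4 to 55.5) and 53.4% (49.1 to 57.6) in +/+. Neighbouring genes had medians of at most 0.254% in E147A/+ and of 45.2% to 49.5% in +/+. The E147A genotype and the 129 haplotype of these stretches cannot be told apart in the females.

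Counts assigned to 129 gave Dll1 a level of 19.6 and 15.2 CPM in E147A/+ and of 9.52 and 5.24 in +/+. The Cast level of Dll1 in +/+ was 9.43 and 5.68 CPM. The 129 level of Notch3 was 23.9 and 25.0 CPM in E147A/+ and 9.04 and 6.19 in +/+, with a Cast level of 9.58 and 7.09 there. In +/+ both alleles of both genes were thus used about equally. In E147A/+ the median neighbour also had almost no Cast counts, so how many gene copies gave the 129 counts is not known. The 129 levels thus do not compare single gene copies between genotypes.

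The 1 female library high in Dll3 also had a high Cast share of that gene, and the other 3 had 0 to 5 Cast counts. In female +/+ 2 the Cast share was 75.8% (73.4 to 78.1), with 50% as the median of neighbouring genes. In the other 3 females it was at most 0.893%, with neighbour medians of 1.35% to 7.91%. The 129 level was 7.96 CPM in that library and 8.21 to 13.6 in the others. How many gene copies gave the 129 counts of the others is not known, so these levels do not compare single copies. The Cast level was 25.0 CPM in female +/+ 2 and at most 0.115 CPM in the others. The same library was high in Pdgfra and Sox10, and the part of allele and of cell type in its Dll3 level cannot be told apart with 1 such library.

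Hes5 also differed in Cast share between the female groups, in the direction opposite to Dll1 and Notch3. Its Cast share was 61.4% (46.6 to 74.3) and 60% (35.7 to 80.2) in E147A/+ and 2.70% (0.479 to 13.8) and 3.33% (0.591 to 16.7) in +/+, from 15 to 44 allelic counts per library. Neighbour medians were 47.1% and 48.7% in E147A/+ and 4.20% and 2.34% in +/+. Both +/+ females were of litter 3 and no E147A/+ female was. Genotype, litter and the haplotype of this stretch therefore cannot be told apart.

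Hey1 carried Cast counts in all 4 females, at 58.6% (51.6 to 65.2) and 68.8% (59.7 to 76.6) in E147A/+ and 66.2% (57.8 to 73.7) and 69.5% (63.0 to 75.4) in +/+, with neighbour medians of 46.7% to 55.3%. The interval in female E147A/+ 1 covered its neighbour median, and single neighbours reached 68.4% to 94.1%. Hes6 had a Cast share of 41.2% (39.0 to 43.4) in female +/+ 1 and of at most 0.151% in the other 3. Its neighbour medians were 49.1% in female +/+ 1 and 0.623% to 1.91% in the other 3.

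In single females Notch1, Notch2 and Jag1 had low Cast shares that lay above the median of their neighbours. For Notch1 the share was 9.996% (8.90 to 11.2) in female E147A/+ 1, where the neighbour median was 0.107%, and 47.0% to 50.3% in the other 3. For Notch2 it was 5.69% (4.40 to 7.34) in female E147A/+ 1 and 7.21% (5.62 to 9.21) in female +/+ 1, with neighbour medians of 1.25% and 1.47%, and 48.8% and 49.7% in the others. For Jag1 it was 16.4% (14.0 to 19.3) in female E147A/+ 2 and 22.8% (18.6 to 27.5) in female +/+ 2, with neighbour medians of 0.123% and 0.769%, and 50.2% and 51.7% in the others. Single neighbours in these libraries had shares of up to 85.0% for Notch1 and 100% for Notch2, and the highest of the 5 neighbours of Jag1 had at least 43.0% in both of its libraries, so Cast counts there were not particular to these genes. The cause of these Cast counts was not tested.

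**Figure D5:**
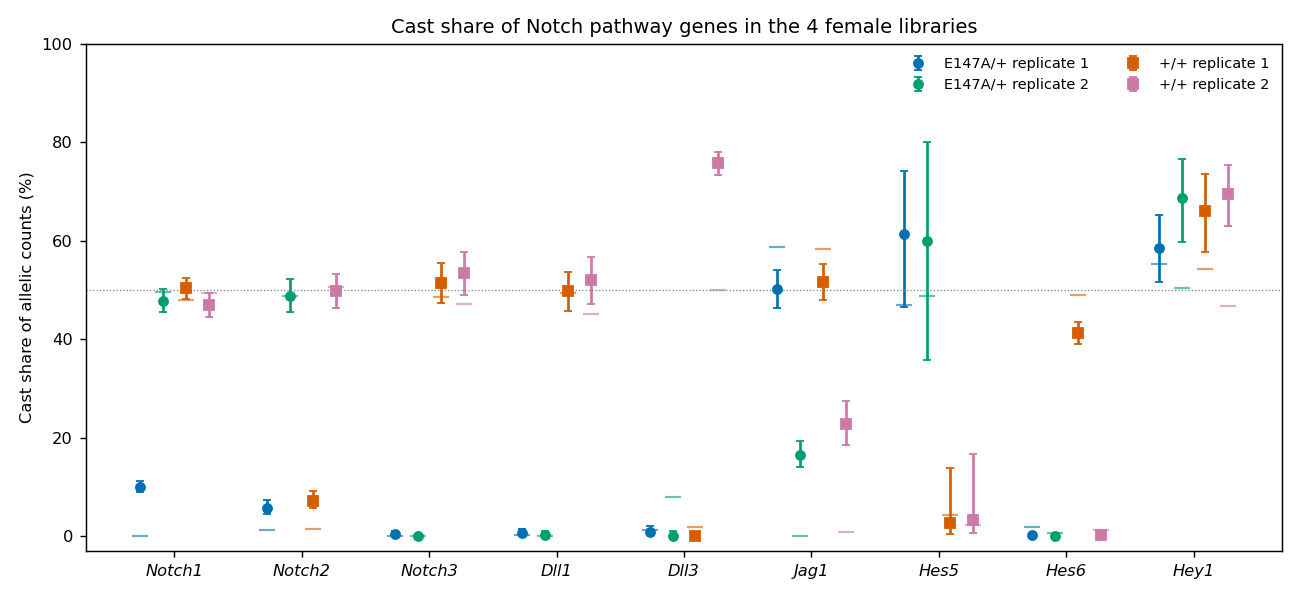
Cast share of allelic counts (vertical axis, percent) for 9 genes in the 4 female libraries, with 95% Wilson intervals and short lines at the median of neighbouring genes within 2 Mb. Notch3 and Dll1 are near 0 in both E147A/+ libraries and near 50 in both +/+ libraries, and Dll3 is at 75.8% in 1 library and near 0 in 3.

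Other genes of the pathway gave no call either. Of 8 further ligand and receptor genes, 27 genes of receptor processing, glycosylation and turnover, 12 of the nuclear complex, 7 of 10 further targets and 4 of 7 proneural genes that were tested, 0 passed an adjusted p of 0.05 over both sexes by edgeR, with 2, 2, 0, 2 and 0 past an unadjusted p of 0.05, beside 0.0818% and 5.90% of all tested genes. Their median log2 fold changes were -0.12, -0.035, -0.057, -0.052 and 0.065. The genes of lowest p in each list were as follows. Cntn1 and Cntn6, contactins reported as Notch ligands, had log2 fold changes of -1.72 (SE 0.42) and -1.59 (SE 0.51). Dtx4, a Deltex ubiquitin ligase, and Psenen, a subunit of the gamma-secretase that cleaves Notch, had -0.59 (SE 0.23) and -0.35 (SE 0.15).

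Rbpj, the DNA-binding partner of Notch, and Snw1, a coactivator, had log2 fold changes of 0.22 (SE 0.12) and -0.20 (SE 0.11). Among targets Hes7, the oscillating repressor of somite formation, had 1.47 (SE 0.48) at no more than 0.508 CPM, and Nrarp, a feedback inhibitor of Notch, had -0.56 (SE 0.21). Among proneural genes Neurog2, a neurogenic factor, had -2.25 (SE 1.24) at no more than 6.76 CPM, and Insm1, a factor of intermediate progenitors, had 0.13 (SE 0.24).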

How the data were processed

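Poly(A) libraries were made with a stranded kit and sequenced as 80 bp paired reads, per the labels. Raw counts for each gene in all 10 libraries were deposited, and for the 4 females the authors also gave counts per 129 and Cast allele. The submitters' processing notes name Trim Galore 0.4.4, HISAT2 2.0.5, featureCounts, R 3.5.1, edgeR 3.24.0 and the builds GRCm38 and mm10. The strand setting and the way alleles were assigned are not given in the sources used here. Columns of per-sample values were all used.

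Groups came from titles and litters from the litter label. Genes were kept by filterByExpr, scaled by TMM and tested with edgeR 4.0.16 under R 4.3.3 on 1 mean per group over all 10 libraries, with 6 residual degrees of freedom (3 with litter as a term). Adjustment was by Benjamini-Hochberg at 0.05, and a standard error is the size of the log2 change over the square root of F. Correlations used log2 CPM with a prior count of 2 and 100000 permutations, or all of them for fewer than 10 libraries. Libraries of a gene were called separate clusters where the largest gap took at least 40% of the log2 range with at least 3 libraries on each side, a rule added after the data were seen. Exon lengths came from GENCODE M21 and intervals from scipy 1.17.1. Alternatives were DESeq2 1.42.0, RLE factors, other filters, a litter term, a replicate block, only the groups compared, group-centred and male-only correlations, an allelic minimum of 30, and leaving out each library.

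All 10 genes are named. Pathway lists give genes past the threshold or the 2 of lowest p, and pairs are those past the threshold plus Dll1 with Hes5, Notch1 with Hes5, Notch1 with Hes1, Jag1 with Hes1 and Dll3 with Hes6. The members and lists were chosen with earlier results of these data known. Gpr17, Pdgfra and Sox10 were named after their values were seen.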

Additional observations from a re-analysis of the deposited data

How the results depend on the processing

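None of the 10 genes passed an adjusted p of 0.05 for genotype under any alternative run, and with each library left out in turn 0 passed in every comparison, with 0 to 3 over both sexes, 0 to 3 in females and 0 to 5 in males past an unadjusted p of 0.05. Dll3 and Hes5 kept their signs over both sexes, in females and in males under every alternative run, with values in females of -1.90 to -0.40 and -2.04 to -0.081. Counts over all genes moved more. Over both sexes 14 genes became 104 with DESeq2, 33 with no filter, 9 with 10 counts in every library, 3 with a litter term and 2 to 12 with a library left out. In females 2 became 42 with DESeq2, 8 with no filter, 0 with a litter term (286 unadjusted), 1 with only the groups compared and 0 to 2 with a library left out. In males 4 became 51, 14, 2 and 1 in that order of settings and 1 to 4 with a library left out. The interaction went from 0 to 2 with DESeq2, to 1 with a litter term and to between 0 and 1 with a library left out. Sex in +/+ went from 5 to 0 with 10 counts in every library (203 unadjusted) and was 5 with each library left out. The 19 genes of the litter comparison became 0 to 19, with 0 without male E147A/+ 2 or 3 or male +/+ 2 or 3. The cause of these shifts was not tested, apart from the smaller number of samples or genes that some settings leave.

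Replicate numbers did not pair the cultures: deviations of same-numbered libraries had a correlation of -0.30 in females and of -0.24, 0.42 and 0.034 in males. With a replicate block the genes called were 5 over both sexes, 0 in females (836 unadjusted), 2 in males and 3 for sex in +/+, and 0 of the 10 members passed. With the female numbers crossed, an alternative chosen after seeing the data, 6 genes were called over both sexes and 0 in females (1020 unadjusted). The block moved values near 0 across it over both sexes: Notch1 to 0.015, Notch2 to 0.0013 and Hes6 to 0.025, and to 0.015, 0.0013 and 0.025 when crossed.

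With a litter term the log2 fold change of Hes1 was -0.071 over both sexes and -0.15 in females. That of Dll1 in females was -0.59 and that of Hes6 over both sexes 0.29. Female E147A/+ 2 and male +/+ 1 were the only libraries of litters 2 and 4 and so added nothing to these values. Female values with a litter term thus rest on female E147A/+ 1 alone on the E147A/+ side. Notch1 over both sexes became 0.00058 with no filter and 0.010 with 10 counts in every library, and Hes6 0.0039 with the latter. With a library left out, signs changed over both sexes for Notch1 (-0.18 to 0.16), Notch2 (-0.12 to 0.15), Dll1 (-0.33 to 0.035) and Hes6 (-0.11 to 0.18), in females for Notch1 (-0.48 to 0.21), Notch2 (-0.25 to 0.060), Dll1 (-0.23 to 0.48), Jag1 (-0.32 to 0.70) and Hey1 (-0.83 to 0.042), and in males for Notch1 (-0.15 to 0.34), Notch2 (-0.14 to 0.40) and Notch3 (-0.14 to 0.59). In the litter comparison they changed for Hes6 (-0.52 to 0.30) and Hey1 (-0.17 to 0.61). The 3 pairs past the threshold became 11 with group means subtracted, where p can be too small because deviations are tied within groups. They became 0 in the males alone (9 unadjusted) and 0 to 5 with a library left out. The count was 0 without female +/+ 1, male E147A/+ 1 or 2, or male +/+ 1 or 3. The allelic values of Hes1 and Hes5 rest on the fewest counts, since 0.203% to 0.441% and 6.59% to 7.76% of their counts were assigned to an allele, against at least 18.4% for each other member.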
